A study of Mus musculus with 36 samples.

Results

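Glycolysis turns glucose into pyruvate and lactate, and the hypoxia response is the gene programme that cells switch on when oxygen is short. The mRNA of 40 mouse genes of these linked programmes was followed across 4 cell populations. They were taken by gene symbol from a list chosen with earlier results of these data known, are 40 of 55573 Ensembl gene models in the tables, and fall into 7 roles. The roles are glucose and lactate transporters, the hexose phase of glycolysis, its triose phase with lactate formation, regulators of flux, mitochondrial hypoxia genes, oxygen sensors with collagen hydroxylases, and secreted or other hypoxia genes.

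The question of the study was what engineered vesicles from the bacterial outer membrane (OMV) change in tumor macrophages and in marrow precursors. Each population was sequenced after OMV-SIRP-G, OMV-SIRP or PBS, with 3 libraries in each of 12 groups and 36 libraries in all. GMP (the usual abbreviation for granulocyte-macrophage progenitors) and monocytes came from bone marrow, and TAM (tumor-associated macrophages) came from B16-F10 tumors, a mouse melanoma line, or from MC38 tumors, a mouse colon carcinoma line. All mice are labelled WT. The labels give no strain, age, dose or time and do not say what the G adds to OMV-SIRP. Per the design text, material of 3 samples of each group was pooled, and separate mice behind the 3 libraries are not stated. The p-values therefore reflect the spread between libraries alone, which may be technical. PBS is the buffer control. Sequencing gave 13036567 to 19822660 reads per library assigned to genes.

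Levels are FPKM, fragments per kilobase of gene scaled to a depth set for each library. They may be set against each other between genes because they are scaled to length. The depth behind the deposited values differed from the total of assigned reads. It was 0.77 (monocyte PBS 2) to 1.20 (MC38 TAM PBS 2) times that total, and a smaller depth raises FPKM. In MC38 TAM it was 0.85 to 1.00 times the total after OMV-SIRP and 1.15 to 1.20 times after PBS. The same ratio in GMP was 1.04 to 1.05 after OMV-SIRP, 1.09 to 1.15 after PBS and 1.10 to 1.12 after OMV-SIRP-G. Monocyte ratios were 0.98 to 1.01 after OMV-SIRP, 0.77 to 0.94 after PBS and 0.93 to 0.94 after OMV-SIRP-G. Changes are differences of log2(FPKM + 1) from limma, given as the log2 change ± its SE, and adding 1 FPKM understates the change of genes at low levels. A gene was called higher or lower at a Benjamini-Hochberg adjusted p under 0.05 over all genes tested in that population. Tests stay within a population, since GMP and monocytes are different cells and the tumor tables were scaled separately. Within a population the 3 comparisons share libraries: OMV-SIRP-G and OMV-SIRP were each set against the same 3 PBS libraries. In GMP, Eno2 and Adm were below 1 FPKM in too many libraries to be tested, so 38 members were tested there, and all 40 were tested in the other populations.

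In glycolysis, hexokinases phosphorylate glucose after transporters have brought it in, phosphofructokinase commits the sugar to the pathway, and aldolase splits it into trioses that are oxidised to pyruvate. Lactate dehydrogenase then reduces pyruvate to lactate, which monocarboxylate transporters carry across the membrane. The hypoxia-inducible factors are transcription factors whose alpha subunits are hydroxylated and destroyed when oxygen is plentiful. When oxygen is short they bind short DNA motifs with the core letters CGTG, next to many glycolytic genes and next to genes for vessel growth, mitophagy and pH control. Macrophages are known to use glycolysis strongly when they are activated by bacterial products.

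Promoter sequence is shown for 6 members called higher with OMV-SIRP than with PBS in GMP, as described further on. They were picked by hand from the 34 members so called. Where a member had several windows, the window with the most matches is shown. The windows run from 250 bases before to 50 bases after the start of the RefSeq transcript on GRCm38.p6, read 5′ to 3′ on the strand of the gene, and capitals mark ACGTG or GCGTG on either strand (CACGT and CACGC on the strand shown). Ldha, the lactate dehydrogenase subunit, is at chr7:46845554-46845853 on the plus strand; Slc2a1, the main glucose transporter of many cells, is at chr4:119108495-119108794 on the plus strand. The windows of the mitophagy receptor Bnip3 (chr7:138909457-138909756), the mitochondrial protein gene Fam162a (chr16:36071512-36071811), the oxygen sensor Egln3 (chr12:54203825-54204124) and the ankyrin repeat gene Ankrd37 (chr8:45999801-46000100) lie on the minus strand.
Ldha: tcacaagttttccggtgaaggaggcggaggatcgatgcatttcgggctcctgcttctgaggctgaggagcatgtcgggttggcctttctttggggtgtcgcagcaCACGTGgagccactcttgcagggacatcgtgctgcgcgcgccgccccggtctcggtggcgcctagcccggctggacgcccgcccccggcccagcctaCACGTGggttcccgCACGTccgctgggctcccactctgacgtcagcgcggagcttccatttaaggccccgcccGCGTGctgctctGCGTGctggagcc
Slc2a1: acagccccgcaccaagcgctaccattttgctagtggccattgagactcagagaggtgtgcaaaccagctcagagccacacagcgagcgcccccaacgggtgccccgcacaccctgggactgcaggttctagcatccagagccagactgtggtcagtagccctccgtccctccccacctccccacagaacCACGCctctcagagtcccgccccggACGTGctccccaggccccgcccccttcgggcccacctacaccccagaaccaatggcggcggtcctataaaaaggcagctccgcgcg
Bnip3: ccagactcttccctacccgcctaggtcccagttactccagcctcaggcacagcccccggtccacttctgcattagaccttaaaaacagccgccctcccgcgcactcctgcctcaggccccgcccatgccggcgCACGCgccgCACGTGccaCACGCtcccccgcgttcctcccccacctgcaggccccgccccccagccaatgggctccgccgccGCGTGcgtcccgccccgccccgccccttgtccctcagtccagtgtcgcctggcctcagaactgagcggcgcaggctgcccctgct
Fam162a: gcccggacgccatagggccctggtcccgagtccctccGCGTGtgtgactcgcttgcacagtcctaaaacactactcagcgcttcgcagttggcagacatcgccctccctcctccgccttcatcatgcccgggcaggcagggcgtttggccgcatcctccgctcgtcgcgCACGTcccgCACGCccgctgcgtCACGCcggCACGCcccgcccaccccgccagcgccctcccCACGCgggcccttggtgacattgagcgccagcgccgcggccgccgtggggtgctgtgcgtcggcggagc
Egln3: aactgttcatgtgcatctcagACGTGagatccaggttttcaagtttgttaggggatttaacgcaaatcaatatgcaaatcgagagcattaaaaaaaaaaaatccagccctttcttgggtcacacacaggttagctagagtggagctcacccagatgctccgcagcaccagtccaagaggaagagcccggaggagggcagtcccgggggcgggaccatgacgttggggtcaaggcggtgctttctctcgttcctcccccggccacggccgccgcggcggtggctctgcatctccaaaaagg
Ankrd37: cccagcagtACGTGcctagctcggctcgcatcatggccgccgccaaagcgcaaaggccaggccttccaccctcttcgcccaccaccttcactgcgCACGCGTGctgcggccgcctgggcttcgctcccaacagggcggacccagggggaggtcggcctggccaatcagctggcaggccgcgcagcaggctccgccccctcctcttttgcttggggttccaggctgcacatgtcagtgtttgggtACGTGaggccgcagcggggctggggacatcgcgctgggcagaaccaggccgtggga
The Ldha window held 5 ACGTG and 2 GCGTG matches, the most ACGTG of these 6, and a second Ldha window, not shown, held 0 and 2. Fam162a held 1 ACGTG and 5 GCGTG, Bnip3 2 and 3, Ankrd37 2 and 2, Slc2a1 1 and 1, and Egln3 1 and 0, where a CACGTG run counts once on each strand.

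Over the whole set, 36 of the 40 members matched 50 RefSeq windows, and Ndrg1, Bnip3l, Slc2a3 and Cox4i2 had none in the table. Of the 36, 33 (91.7%) held ACGTG or GCGTG in at least 1 window, against 46.7% of all genes and 68.1% of genes tested in GMP. Eno2 held neither, nor did Tpi1 and Gpi1, both called higher with OMV-SIRP in GMP. ACGTG on either strand was present in 30 of these 50 windows (60%), against 19.6% of the 32851 windows of all genes and 26.3% of the 10806 windows of genes tested in GMP. GCGTG was present in 29 windows (58%), against 32.4% of all windows and 50.5% of those of genes tested in GMP. Either motif was present in 41 windows (82%), against 43.8% and 62.3%. These letter matches are a description of the windows and carry no test; no binding was measured.

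Some libraries stood apart before any comparison. Among monocytes, PBS 2 differed from PBS 1 and PBS 3, and replicate correlations over genes reached down to 0.925 there, compared with a lowest value of 0.98 in GMP, 0.929 in B16 TAM and 0.810 in MC38 TAM. In MC38 TAM, OMV-SIRP 2 and PBS 3 were the libraries farthest from their groups. The labelled cell types were checked against markers. In GMP, progenitor markers summed to 5142 to 6422 FPKM, neutrophil maturation markers to 27389 to 59615 and eosinophil markers to 2507 to 4930. In monocytes, monocyte markers summed to 2162.5 to 2557.6 FPKM and neutrophil maturation markers to 2233 to 7294. The lists hold different genes, so these sums do not give shares of cells. Macrophage markers (Csf1r, Adgre1, Cd68, Mrc1, Apoe and the C1q genes) summed to 9366 to 9870.5 FPKM after OMV-SIRP-G, 4324 to 6279.9 after OMV-SIRP and 4879.9 to 5464 after PBS in B16 TAM. In MC38 TAM the same sum was 1319 to 1355 FPKM after OMV-SIRP-G, 1579 to 2209 after OMV-SIRP and 63.1 to 169.5 after PBS, so the MC38 PBS libraries carried little macrophage mRNA for their label, with Mrc1 at 0.151 to 1.22 FPKM. Fewer cells of a type and less RNA per cell cannot be told apart in these bulk libraries.

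As a set, the members stood higher after OMV-SIRP than after PBS in GMP and lower in monocytes, a difference between populations that was not tested. The median over members of log2(FPKM + 1) minus the PBS mean of the population was 0.05, 0.08 and 0.10 after OMV-SIRP-G, 0.61, 0.57 and 0.59 after OMV-SIRP and -0.06, 0.02 and 0.03 after PBS in GMP. All OMV-SIRP libraries of GMP lay above all 6 others. In monocytes the same median was 0.06, 0.03 and 0.01 after OMV-SIRP-G, -0.34, -0.40 and -0.32 after OMV-SIRP and -0.06, 0.12 and -0.05 after PBS, so all OMV-SIRP libraries lay below the rest, and the highest was PBS 2. In B16 TAM it was -0.25, -0.31 and -0.28 after OMV-SIRP-G, -0.11, -0.14 and -0.07 after OMV-SIRP and 0.06, -0.04 and -0.03 after PBS, in the order OMV-SIRP-G below OMV-SIRP below PBS. In MC38 TAM it was 1.00, 0.89 and 0.98 after OMV-SIRP-G, 1.20, 0.96 and 0.88 after OMV-SIRP and -0.07, 0.02 and 0.04 after PBS, so every OMV-SIRP-G and OMV-SIRP library lay above every PBS library. Both OMV treatments overlapped there.

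**Figure D1:**
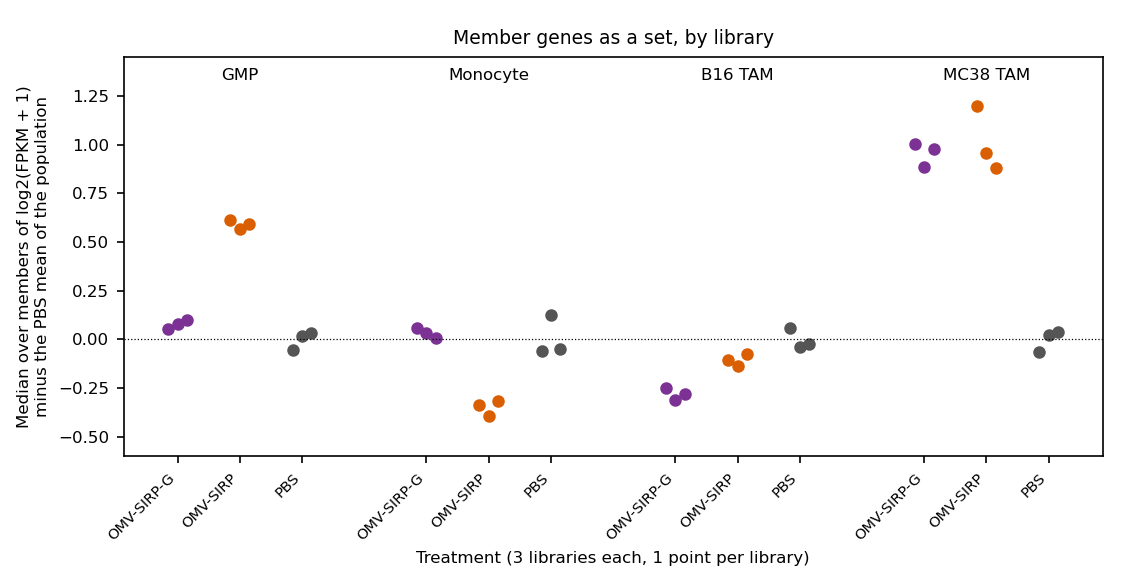
Each point is 1 library: the median over the tested members of log2(FPKM + 1) minus the mean of the 3 PBS libraries of the same population (38 members in GMP, 40 elsewhere), by treatment. OMV-SIRP libraries sit highest in GMP and lowest in monocytes, and both OMV treatments sit near 1 in MC38 TAM.

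**Figure D2:**
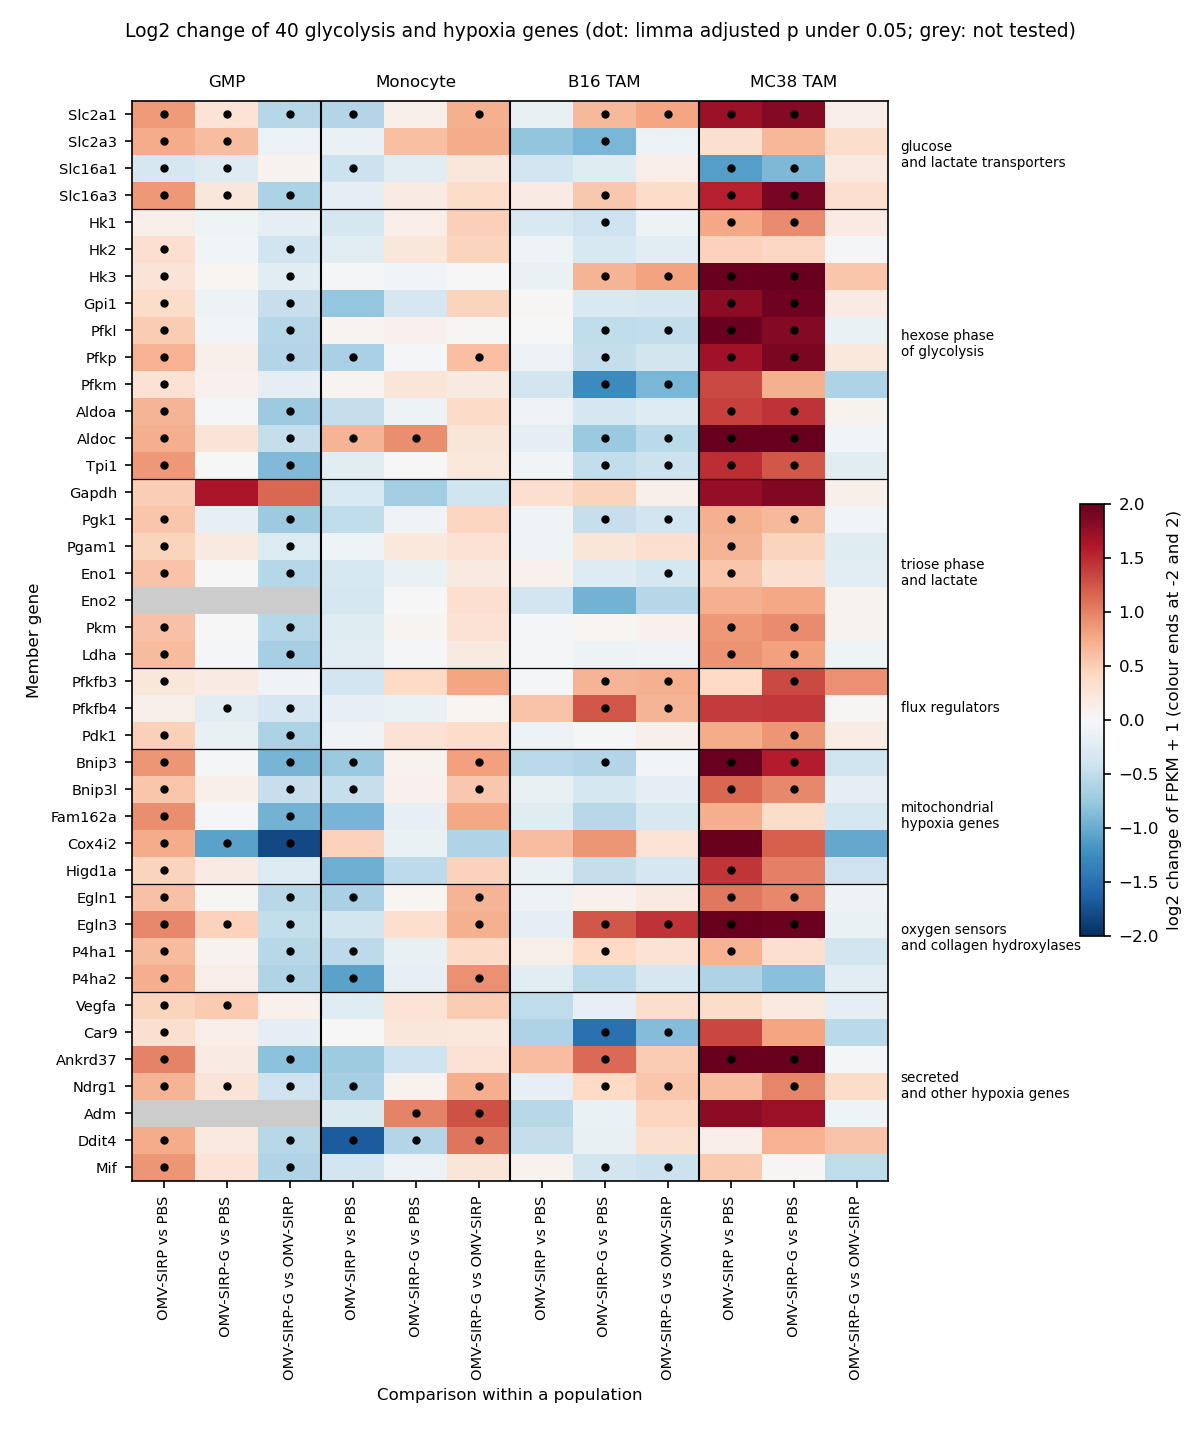
Log2 change of the 40 members (rows, grouped by role) in the 3 comparisons of each population (columns), from -2 (blue) to 2 (red), with a dot where the limma adjusted p was under 0.05 and grey where a gene was not tested. In GMP 34 members were called higher with OMV-SIRP against PBS (10.6% of all genes), in MC38 TAM 22 (7.4%), in monocytes 1 (3.07%) and in B16 TAM 0 (0.885%). Called lower were 1 in GMP (7.52% of all genes), 1 in MC38 TAM (3.49%), 10 in monocytes (5.46%) and 0 in B16 TAM (0.566%).

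In GMP, OMV-SIRP went with higher mRNA across the programme: 34 of the 38 tested members were higher than after PBS and 1 was lower, against 10.6% higher and 7.52% lower among all 12287 genes tested. The median log2 change of the members was 0.58, against 0.015 over all genes. The balance over all genes turned with FPKM scaled to total reads, at 818 higher and 1827 lower against 1308 and 924 as deposited, while 30 members stayed higher and 1 lower, with a median of 0.48. Higher members made up 3 of 4 transporters, 9 of 10 genes of the hexose phase, 5 of the 6 tested of the triose phase, 2 of 3 flux regulators, 5 of 5 mitochondrial genes, 4 of 4 oxygen sensors and collagen hydroxylases and 6 of the 6 tested secreted or other genes. The lower gene was Slc16a1, and Hk1, Gapdh and Pfkfb4 did not pass. OMV-SIRP-G was much closer to PBS, with 6 members higher and 3 lower (6.76% and 5.22% of all genes; median log2 change 0.08). Against OMV-SIRP, OMV-SIRP-G had 0 members higher and 29 lower (6.7% and 8.12% of all genes; median -0.55), and scaling to total reads gave 1337 genes higher and 604 lower, against 823 and 998 as deposited, with 0 members higher and 28 lower.

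Among the transporters of GMP, Slc2a1 had 25.5, 27.6 and 26.8 FPKM after OMV-SIRP-G, 40.9, 38.5 and 41.2 after OMV-SIRP and 21.3, 21.4 and 22.97 after PBS. The 3 groups did not overlap, and OMV-SIRP was highest (against PBS log2 change 0.85 ± 0.05, adjusted p = 1.03e-05; OMV-SIRP-G against OMV-SIRP log2 change -0.57 ± 0.05, adjusted p = 0.000182). Slc2a3, a high-affinity glucose transporter, had 53.8, 54.1 and 53.9 FPKM after OMV-SIRP-G, 61.2, 58.1 and 56.3 after OMV-SIRP and 35.1, 34.8 and 34.2 after PBS. Both OMV groups lay above PBS (OMV-SIRP-G against PBS log2 change 0.62 ± 0.04, adjusted p = 2.18e-05; OMV-SIRP against PBS log2 change 0.74 ± 0.04, adjusted p = 8.69e-06), and their own difference was -0.12 on the log2 scale with an adjusted p of 0.104. Slc16a3, the monocarboxylate transporter known for lactate export, had 54.5, 57.3 and 56.8 FPKM after OMV-SIRP-G, 86.6, 88.7 and 87.4 after OMV-SIRP and 43.4, 47.7 and 52.3 after PBS. It was highest after OMV-SIRP without overlap (log2 change 0.86 ± 0.06, adjusted p = 3.32e-05 against PBS). Its higher level after OMV-SIRP-G than after PBS (log2 change 0.23 ± 0.06, adjusted p = 0.0447) lost its call without PBS 2 or any 1 OMV library (adjusted p up to 0.137). Slc16a1, a monocarboxylate transporter that carries lactate both ways, went the other way, with 8.85, 8.57 and 8.87 FPKM after OMV-SIRP-G, 8.15, 8.40 and 8.36 after OMV-SIRP and 10.4, 11.2 and 10.5 after PBS. Its PBS libraries lay above all others (OMV-SIRP-G against PBS log2 change -0.26 ± 0.05, adjusted p = 0.00594; OMV-SIRP against PBS log2 change -0.33 ± 0.05, adjusted p = 0.0012).

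In the enzymes of glycolysis in GMP, Tpi1, the triose phosphate isomerase, had 229.6, 251 and 245 FPKM after OMV-SIRP-G, 438, 447 and 452 after OMV-SIRP and 210.5, 249.9 and 272 after PBS. All OMV-SIRP libraries stood above the others, which overlapped (OMV-SIRP against PBS log2 change 0.87 ± 0.09, adjusted p = 0.000185, a ratio of means of 1.83; OMV-SIRP-G against OMV-SIRP log2 change -0.88 ± 0.09, adjusted p = 0.000347). Aldoc, an aldolase isoform typical of brain, had 14.4, 13.2 and 14.7 FPKM after OMV-SIRP-G, 20.01, 19.6 and 20.4 after OMV-SIRP and 9.77, 12.01 and 13.4 after PBS. Here too OMV-SIRP was highest (log2 change 0.73 ± 0.09, adjusted p = 0.000793 against PBS), while OMV-SIRP-G overlapped PBS. Ldha had 321, 337 and 349 FPKM after OMV-SIRP-G, 545, 529.6 and 525 after OMV-SIRP and 304, 354 and 378 after PBS. OMV-SIRP lay above both other groups (log2 change 0.63 ± 0.08, adjusted p = 0.000814 against PBS; OMV-SIRP-G against OMV-SIRP log2 change -0.67 ± 0.08, adjusted p = 0.000821), and OMV-SIRP-G did not pass against PBS (adjusted p = 0.832). The same order held for Aldoa, the main aldolase (log2 change 0.69 ± 0.09, adjusted p = 0.000842 for OMV-SIRP against PBS), Pgk1, the phosphoglycerate kinase (log2 change 0.56 ± 0.07, adjusted p = 0.00044), Pkm, the pyruvate kinase (log2 change 0.59 ± 0.09, adjusted p = 0.00194), and Eno1, the enolase of most tissues (log2 change 0.57 ± 0.08, adjusted p = 0.00115). The phosphofructokinase subunits rose by 0.51 (Pfkl), 0.69 (Pfkp) and 0.28 (Pfkm) on the log2 scale with OMV-SIRP against PBS. The Pfkm call ended without any 1 of the 6 libraries compared (adjusted p up to 0.122 over the alternatives). It also ended with FPKM scaled to total reads or to the upper quartile.

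Pdk1, the kinase that shuts pyruvate out of the citric acid cycle, had 18.6, 19.005 and 17.3 FPKM after OMV-SIRP-G, 28.9, 29.2 and 28.5 after OMV-SIRP and 20.8, 20.5 and 19.96 after PBS. It was highest after OMV-SIRP without overlap (log2 change 0.48 ± 0.05, adjusted p = 0.000122 against PBS). Pfkfb3 and Pfkfb4 make and remove the sugar phosphate that activates phosphofructokinase. Pfkfb3 was higher with OMV-SIRP than with PBS (log2 change 0.23 ± 0.05, adjusted p = 0.012). Its call ended without OMV-SIRP 2 and with FPKM scaled to total reads, with or without mitochondrial genes (adjusted p up to 0.113). Pfkfb4 was lower with OMV-SIRP-G than with PBS (log2 change -0.21 ± 0.05, adjusted p = 0.0331), a call lost when any 1 library but PBS 3 was left out (largest adjusted p 0.106).

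The mitochondrial and hypoxia genes gave the steepest changes in GMP. Bnip3, a receptor that marks mitochondria for removal, had 51.2, 50.6 and 51.4 FPKM after OMV-SIRP-G, 101, 98.9 and 96.2 after OMV-SIRP and 48.9, 56.04 and 53.4 after PBS. The OMV-SIRP libraries stood apart from the other 6, which overlapped (OMV-SIRP against PBS log2 change 0.89 ± 0.05, adjusted p = 1.03e-05, a ratio of means of 1.87). Fam162a had 43.9, 38.4 and 38.7 FPKM after OMV-SIRP-G, 76.3, 74.3 and 85.3 after OMV-SIRP and 34.9, 42.5 and 45.9 after PBS. OMV-SIRP again stood above the rest (log2 change 0.93 ± 0.10, adjusted p = 0.000297 against PBS; OMV-SIRP-G against OMV-SIRP log2 change -0.95 ± 0.10, adjusted p = 0.000453). Cox4i2, the isoform of a cytochrome oxidase subunit that low oxygen induces, had 2.08, 1.73 and 2.43 FPKM after OMV-SIRP-G, 9.82, 9.10 and 10.3 after OMV-SIRP and 4.79, 5.88 and 5.72 after PBS. Its 3 groups were separate, and its OMV-SIRP-G libraries lay below PBS (log2 change -1.07 ± 0.10, adjusted p = 0.000124) while its OMV-SIRP libraries lay above (log2 change 0.73 ± 0.10, adjusted p = 0.000936). OMV-SIRP-G against OMV-SIRP gave log2 change -1.81 ± 0.10, adjusted p = 1.66e-05.

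Egln3, a prolyl hydroxylase that tags hypoxia-inducible factors for destruction and is itself among their targets, had 102, 102 and 105 FPKM after OMV-SIRP-G, 147, 147 and 143 after OMV-SIRP and 71.4, 75.7 and 76.7 after PBS in GMP. The groups were separate, in the order OMV-SIRP above OMV-SIRP-G above PBS (OMV-SIRP-G against PBS log2 change 0.46 ± 0.05, adjusted p = 0.000226; OMV-SIRP against PBS log2 change 0.96 ± 0.05, adjusted p = 2.88e-06). Ankrd37 had 10.05, 8.28 and 9.21 FPKM after OMV-SIRP-G, 17.5, 17.1 and 16.3 after OMV-SIRP and 7.85, 8.45 and 7.80 after PBS. It was highest after OMV-SIRP (log2 change 0.99 ± 0.07, adjusted p = 2.03e-05 against PBS), and OMV-SIRP-G overlapped PBS. Ddit4, an inhibitor of the growth kinase mTOR that stress induces, had 20.2, 20.8 and 19.1 FPKM after OMV-SIRP-G, 28.5, 27.8 and 33.3 after OMV-SIRP and 16.6, 18.4 and 17.4 after PBS. OMV-SIRP stood above both others (log2 change 0.74 ± 0.07, adjusted p = 0.000146 against PBS). Mif, a cytokine that inhibits macrophage migration, had 265, 304 and 289.8 FPKM after OMV-SIRP-G, 441, 428 and 435 after OMV-SIRP and 183, 261 and 276 after PBS. The OMV-SIRP libraries did not overlap the rest (log2 change 0.88 ± 0.14, adjusted p = 0.00241 against PBS). Vegfa, the vessel growth factor, had 79.8, 75.5 and 74.6 FPKM after OMV-SIRP-G, 70.2, 74.1 and 72.95 after OMV-SIRP and 58.2, 50.2 and 50.2 after PBS. Both OMV groups lay above PBS (OMV-SIRP-G against PBS log2 change 0.53 ± 0.06, adjusted p = 0.000666; OMV-SIRP against PBS log2 change 0.45 ± 0.06, adjusted p = 0.00134), and the call between them did not pass (adjusted p = 0.44). Adm, the vasodilator peptide adrenomedullin, was too low to be tested in GMP, at 0.458, 0.440 and 0.517 FPKM after OMV-SIRP-G, 0.722, 0.816 and 1.24 after OMV-SIRP and 0.131, 0.210 and 0.253 after PBS.

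Other gene lists of the pathway give the surroundings of these changes in GMP. Of all genes tested, 6.76% were called higher and 5.22% lower in OMV-SIRP-G against PBS, and 10.6% and 7.52% in OMV-SIRP against PBS. The shares were 6.7% and 8.12% in OMV-SIRP-G against OMV-SIRP. Hif1a itself, the alpha subunit of a hypoxia-inducible factor, had 23.7, 24.2 and 24.5 FPKM after OMV-SIRP-G, 18.7, 17.4 and 16.2 after OMV-SIRP and 18.8, 19.8 and 17.6 after PBS. Its OMV-SIRP-G level was higher than both others (log2 change 0.35 ± 0.06, adjusted p = 0.00556 against PBS; log2 change 0.45 ± 0.06, adjusted p = 0.00143 against OMV-SIRP), and OMV-SIRP against PBS did not pass (log2 change -0.10 ± 0.06, adjusted p = 0.307). Of the 26 other hypoxia targets, 21 were tested, with 2 higher and 2 lower in OMV-SIRP-G against PBS, 14 and 0 in OMV-SIRP against PBS, and 1 and 12 in OMV-SIRP-G against OMV-SIRP. Selenbp1, a selenium-binding protein gene, was among them with 57.5, 56.4 and 60.5 FPKM after OMV-SIRP-G, 116, 110.1 and 107 after OMV-SIRP and 59.7, 66.1 and 65.2 after PBS. It was highest after OMV-SIRP (log2 change 0.79 ± 0.06, adjusted p = 2.4e-05 against PBS; OMV-SIRP-G against OMV-SIRP log2 change -0.92 ± 0.06, adjusted p = 2.97e-05). Hilpda, which coats lipid droplets, was the steepest of the list with OMV-SIRP-G against PBS (log2 change 1.01 ± 0.08, adjusted p = 4.06e-05). Of 14 genes of the hypoxia-inducible factor pathway, there were 12 tested, with 1 higher and 1 lower in OMV-SIRP-G against PBS, 2 and 2 in OMV-SIRP against PBS, and 1 and 2 in OMV-SIRP-G against OMV-SIRP. Of 20 other glycolysis and pyruvate genes, 15 were tested, with 3 higher and 1 lower in OMV-SIRP-G against PBS, 3 and 1 in OMV-SIRP against PBS, and 0 and 2 in OMV-SIRP-G against OMV-SIRP. Adpgk, a glucokinase that uses ADP, was among the higher ones (log2 change 0.41 ± 0.05, adjusted p = 0.000562 for OMV-SIRP-G against PBS; log2 change 0.70 ± 0.05, adjusted p = 2.03e-05 for OMV-SIRP against PBS). The 7 genes of the pentose phosphate pathway gave 7 tested, with 0 higher and 1 lower in OMV-SIRP-G against PBS, 2 and 0 in OMV-SIRP against PBS, and 0 and 3 in OMV-SIRP-G against OMV-SIRP. Of 6 gluconeogenesis genes, 4 were tested, with 1 higher and 1 lower in OMV-SIRP-G against PBS, 1 and 1 in OMV-SIRP against PBS, and 0 and 0 in OMV-SIRP-G against OMV-SIRP. The 16 citric acid cycle genes gave 16 tested, with 1 higher and 1 lower in OMV-SIRP-G against PBS, 2 and 1 in OMV-SIRP against PBS, and 0 and 0 in OMV-SIRP-G against OMV-SIRP.

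Markers of other stages moved in the same GMP libraries. Neutrophil maturation markers summed to 36018 to 37227 FPKM after OMV-SIRP-G, 57377 to 59615 after OMV-SIRP and 27389 to 38875 after PBS, and all 10 were called higher with OMV-SIRP against PBS. Proliferation markers summed to 243 to 246 FPKM after OMV-SIRP-G, 304 to 319 after OMV-SIRP and 243 to 249.6 after PBS. Erythroid markers were low, at 5.21 to 6.46 FPKM after OMV-SIRP-G, 5.10 to 6.32 after OMV-SIRP and 39.8 to 56.6 after PBS. Their part in the result was not tested.

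In monocytes the calls with OMV-SIRP were mostly lower ones. With OMV-SIRP, 10 of 40 members were lower and 1 higher than with PBS, against 5.46% lower and 3.07% higher among all 12028 genes tested, and the median log2 change was -0.35. With FPKM scaled to total reads the balance over all genes turned, at 680 higher and 412 lower against 369 and 657 as deposited, and the members gave 1 higher and 8 lower with a median of -0.18. Lower members were Slc2a1 and Slc16a1 of the transporters, Pfkp of the hexose phase, Bnip3 and Bnip3l, Egln1, P4ha1 and P4ha2, and Ndrg1 and Ddit4. Aldoc alone was called higher, and 0 of the 7 genes of the triose phase were called. OMV-SIRP-G again lay close to PBS, with 2 members higher (Aldoc and Adm) and 1 lower (Ddit4), against 1.53% and 2.14% of all genes and a median of 0.01. OMV-SIRP-G against OMV-SIRP had 10 members higher and 0 lower (1.59% and 0.848% of all genes; median 0.38). That scaling gave 139 higher and 185 lower genes here, against 191 and 102 as deposited, with 8 members higher and 0 lower.

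The monocyte counts depend on PBS 2, in which many enzymes of glycolysis stood high. Aldoa had 2285, 2130.5 and 2291 FPKM after OMV-SIRP-G, 1598, 1689 and 1864 after OMV-SIRP and 1933, 3787 and 1856 after PBS, Mif had 702, 653 and 771 FPKM after OMV-SIRP-G, 517, 621 and 657 after OMV-SIRP and 548, 1470.1 and 563 after PBS and Ldha had 919.7, 851 and 942 FPKM after OMV-SIRP-G, 781, 791 and 815 after OMV-SIRP and 773, 1367 and 742 after PBS. The spread of PBS 2 from the other PBS libraries was larger than any difference between group means for these 3 genes. Without PBS 2, OMV-SIRP against PBS had 3 members higher and 21 lower, OMV-SIRP-G against PBS 10 and 1, and OMV-SIRP-G against OMV-SIRP 26 and 1. Calls over all genes rose too, from 369 higher and 657 lower to 1499 and 2064 of 11854 for OMV-SIRP against PBS. They rose from 184 and 258 to 671 and 808 for OMV-SIRP-G against PBS. For OMV-SIRP-G against OMV-SIRP they rose from 191 and 102 to 1548 and 968. Ldha, at a log2 change of -0.03 for OMV-SIRP-G against PBS (adjusted p = 0.958), then came to 0.25 and was called higher. Without any 1 OMV-SIRP library, OMV-SIRP against PBS had 6 members called, and without any 1 OMV library OMV-SIRP-G against OMV-SIRP had 3 or 4. All genes gave 366 to 435 calls in the first of these settings and 59 to 76 in the second. PBS 2 also had the highest erythroid, neutrophil and progenitor marker sums of the monocyte libraries. Erythroid markers summed to 17.1 to 21.3 FPKM after OMV-SIRP-G, 8.51 to 9.61 after OMV-SIRP and 138 to 426 after PBS, neutrophil maturation markers to 2427 to 3361 FPKM after OMV-SIRP-G, 2233 to 2556 after OMV-SIRP and 2922 to 7294 after PBS and progenitor markers to 228 to 273 FPKM after OMV-SIRP-G, 425 to 479 after OMV-SIRP and 795 to 1797 after PBS; their part in the result was not tested.

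Ddit4 gave the steepest call among monocytes with 88.5, 82.7 and 97.4 FPKM after OMV-SIRP-G, 39.8, 39.3 and 46.8 after OMV-SIRP and 126, 148 and 131 after PBS. The groups were separate (OMV-SIRP against PBS log2 change -1.67 ± 0.12, adjusted p = 0.000284, a ratio of means of 0.310; OMV-SIRP-G against OMV-SIRP log2 change 1.08 ± 0.12, adjusted p = 0.00418). Its lower level with OMV-SIRP-G than with PBS (log2 change -0.59 ± 0.12, adjusted p = 0.0334) lost its call when any 1 library but PBS 2 was left out (largest adjusted p 0.154). Bnip3 had 277, 282 and 281 FPKM after OMV-SIRP-G, 146, 171 and 159 after OMV-SIRP and 256, 275 and 266 after PBS. OMV-SIRP libraries lay below all others (against PBS log2 change -0.74 ± 0.11, adjusted p = 0.00634; OMV-SIRP-G against OMV-SIRP log2 change 0.82 ± 0.11, adjusted p = 0.0101). Its relative Bnip3l, which clears mitochondria during red cell maturation, had 95.99, 94.7 and 92.8 FPKM after OMV-SIRP-G, 63.9, 64.7 and 65.7 after OMV-SIRP and 86.9, 90.1 and 90.3 after PBS. OMV-SIRP was again lowest (log2 change -0.45 ± 0.08, adjusted p = 0.0147 against PBS). The call ended without any 1 OMV-SIRP library and with FPKM scaled to total reads (adjusted p up to 0.12 over the alternatives).

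The oxygen sensor Egln1, the main hydroxylase of hypoxia-inducible factors, had 148, 149 and 139 FPKM after OMV-SIRP-G, 87.6, 90.3 and 92.6 after OMV-SIRP and 137, 156 and 134 after PBS in monocytes. Its OMV-SIRP libraries stood below the rest (log2 change -0.65 ± 0.10, adjusted p = 0.00839 against PBS; OMV-SIRP-G against OMV-SIRP log2 change 0.68 ± 0.10, adjusted p = 0.0162). The call against PBS ended without OMV-SIRP 1 and in a fit of only those 2 groups (adjusted p up to 0.0646), a fit that also ended those of Bnip3 and Ndrg1 (adjusted p up to 0.0606 and 0.0519). Egln3 had 418, 412 and 402 FPKM after OMV-SIRP-G, 260.2, 247 and 244 after OMV-SIRP and 333, 317 and 325 after PBS. The groups were separate, with OMV-SIRP-G above PBS above OMV-SIRP, and the OMV-SIRP-G to OMV-SIRP difference passed (log2 change 0.71 ± 0.11, adjusted p = 0.0162) while those against PBS did not (adjusted p = 0.171 for OMV-SIRP-G and 0.0723 for OMV-SIRP). P4ha2 and P4ha1 encode catalytic subunits of the enzyme that hydroxylates collagen. P4ha2 had 16.5, 17.5 and 15.8 FPKM after OMV-SIRP-G, 8.10, 8.89 and 8.15 after OMV-SIRP and 17.99, 21.4 and 16.9 after PBS. OMV-SIRP was lowest without overlap (log2 change -1.07 ± 0.11, adjusted p = 0.00117 against PBS; OMV-SIRP-G against OMV-SIRP log2 change 0.91 ± 0.11, adjusted p = 0.00562). P4ha1 had 114, 111 and 114 FPKM after OMV-SIRP-G, 90.7, 84.6 and 83.4 after OMV-SIRP and 119, 132 and 123 after PBS. Its groups were separate, and OMV-SIRP against PBS passed (log2 change -0.53 ± 0.10, adjusted p = 0.0136). The call ended without any 1 OMV-SIRP library and with FPKM scaled to total reads (adjusted p up to 0.0962 over the alternatives). Ndrg1, a stress gene that low oxygen induces, had 125, 131 and 120.3 FPKM after OMV-SIRP-G, 71.04, 77.4 and 77.4 after OMV-SIRP and 121, 120.2 and 118 after PBS. The OMV-SIRP libraries lay below all others (log2 change -0.66 ± 0.09, adjusted p = 0.00533 against PBS; OMV-SIRP-G against OMV-SIRP log2 change 0.73 ± 0.09, adjusted p = 0.0078).

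Slc2a1 in monocytes had 234, 230.2 and 222 FPKM after OMV-SIRP-G, 142, 138 and 141 after OMV-SIRP and 208, 219.6 and 206 after PBS. OMV-SIRP was lowest, without overlap (log2 change -0.59 ± 0.10, adjusted p = 0.0102 against PBS; OMV-SIRP-G against OMV-SIRP log2 change 0.70 ± 0.10, adjusted p = 0.0119). The first call ended without any 1 OMV-SIRP library, with a replicate block and in a fit of only OMV-SIRP and PBS (adjusted p up to 0.0848). Pfkp, the platelet-type phosphofructokinase subunit, had 49.1, 49.2 and 49.1 FPKM after OMV-SIRP-G, 33.5, 30.1 and 32.8 after OMV-SIRP and 51.5, 48.8 and 51.9 after PBS. It followed the same order (log2 change -0.64 ± 0.09, adjusted p = 0.0039 for OMV-SIRP against PBS; log2 change 0.60 ± 0.09, adjusted p = 0.0128 for OMV-SIRP-G against OMV-SIRP). Slc16a1 had 9.21, 10.04 and 9.26 FPKM after OMV-SIRP-G, 7.49, 8.12 and 8.22 after OMV-SIRP and 11.2, 10.6 and 11.5 after PBS. The call of OMV-SIRP against PBS (log2 change -0.44 ± 0.09, adjusted p = 0.0205) ended without any 1 of 6 libraries, among them PBS 1, PBS 3 and each OMV-SIRP library (adjusted p up to 0.203 over the alternatives). It also ended with FPKM scaled to total reads or to the upper quartile. Aldoc went against the rest, with 24.9, 21.9 and 26.1 FPKM after OMV-SIRP-G, 18.3, 20.997 and 21.5 after OMV-SIRP and 11.4, 13.8 and 11.7 after PBS. Both OMV groups lay above PBS (log2 change 0.93 ± 0.12, adjusted p = 0.00345 for OMV-SIRP-G; log2 change 0.68 ± 0.12, adjusted p = 0.0104 for OMV-SIRP, which did not pass without OMV-SIRP 2 or OMV-SIRP 3). The OMV-SIRP call of Aldoc also ended in a fit of only OMV-SIRP and PBS. Adm was higher with OMV-SIRP-G than with PBS (log2 change 1.00 ± 0.13, adjusted p = 0.00446) or OMV-SIRP (log2 change 1.28 ± 0.13, adjusted p = 0.00297), at 5.57, 4.68 and 5.34 FPKM after OMV-SIRP-G, 1.74, 1.35 and 1.56 after OMV-SIRP and 1.84, 2.69 and 1.85 after PBS. Vegfa had 127, 121 and 130.1 FPKM after OMV-SIRP-G, 85.999, 91.4 and 87.4 after OMV-SIRP and 115, 87.6 and 113 after PBS, and 0 of its 3 comparisons passed. The OMV-SIRP-G against OMV-SIRP calls of Bnip3, Bnip3l, Egln1, Egln3, Ndrg1, Pfkp and Slc2a1 were each lost without at least 5 single libraries of the 6 compared (adjusted p up to 0.119, for Bnip3l), while those of P4ha2, Ddit4 and Adm held in every alternative.

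Around these members in monocytes, Hif1a had 46.3, 52.6 and 41.7 FPKM after OMV-SIRP-G, 25.3, 28.1 and 26.5 after OMV-SIRP and 39.6, 26.6 and 41.7 after PBS. OMV-SIRP-G against OMV-SIRP came to log2 change 0.79 ± 0.17, adjusted p = 0.0595 and did not pass. Of all genes tested, 1.53% were called higher and 2.14% lower in OMV-SIRP-G against PBS, and 3.07% and 5.46% in OMV-SIRP against PBS. The shares were 1.59% and 0.848% in OMV-SIRP-G against OMV-SIRP. Of the 26 other hypoxia targets, 21 were tested, with 3 higher and 0 lower in OMV-SIRP-G against PBS, 1 and 9 in OMV-SIRP against PBS, and 8 and 1 in OMV-SIRP-G against OMV-SIRP. Ero1l, an oxidase of protein folding, was among those higher, with 448, 463 and 420.2 FPKM after OMV-SIRP-G, 146, 139 and 143 after OMV-SIRP and 401, 248 and 418 after PBS. OMV-SIRP-G lay above OMV-SIRP (log2 change 1.63 ± 0.20, adjusted p = 0.00586). Gbe1, the glycogen branching enzyme, had 25.1, 25.6 and 24.5 FPKM after OMV-SIRP-G, 11.3, 10.4 and 12.4 after OMV-SIRP and 21.1, 17.97 and 22.4 after PBS. OMV-SIRP libraries were lowest (log2 change -0.80 ± 0.11, adjusted p = 0.00451 against PBS; OMV-SIRP-G against OMV-SIRP log2 change 1.08 ± 0.11, adjusted p = 0.00289). Of the 14 genes of the hypoxia-inducible factor pathway, 11 were tested, with 0 higher and 0 lower in OMV-SIRP-G against PBS, 0 and 1 in OMV-SIRP against PBS, and 0 and 0 in OMV-SIRP-G against OMV-SIRP. The other glycolysis and pyruvate genes of monocytes numbered 15 tested, with 0 higher and 0 lower in OMV-SIRP-G against PBS, 1 and 0 in OMV-SIRP against PBS, and 0 and 0 in OMV-SIRP-G against OMV-SIRP. For the pentose phosphate pathway there were 7 tested, with 0 higher and 0 lower in OMV-SIRP-G against PBS, 0 and 0 in OMV-SIRP against PBS, and 0 and 0 in OMV-SIRP-G against OMV-SIRP. Gluconeogenesis genes numbered 2 tested, with 0 higher and 0 lower in OMV-SIRP-G against PBS, 0 and 1 in OMV-SIRP against PBS, and 0 and 0 in OMV-SIRP-G against OMV-SIRP. Citric acid cycle genes numbered 16 tested, with 0 higher and 0 lower in OMV-SIRP-G against PBS, 0 and 0 in OMV-SIRP against PBS, and 0 and 0 in OMV-SIRP-G against OMV-SIRP.

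**Figure D3:**
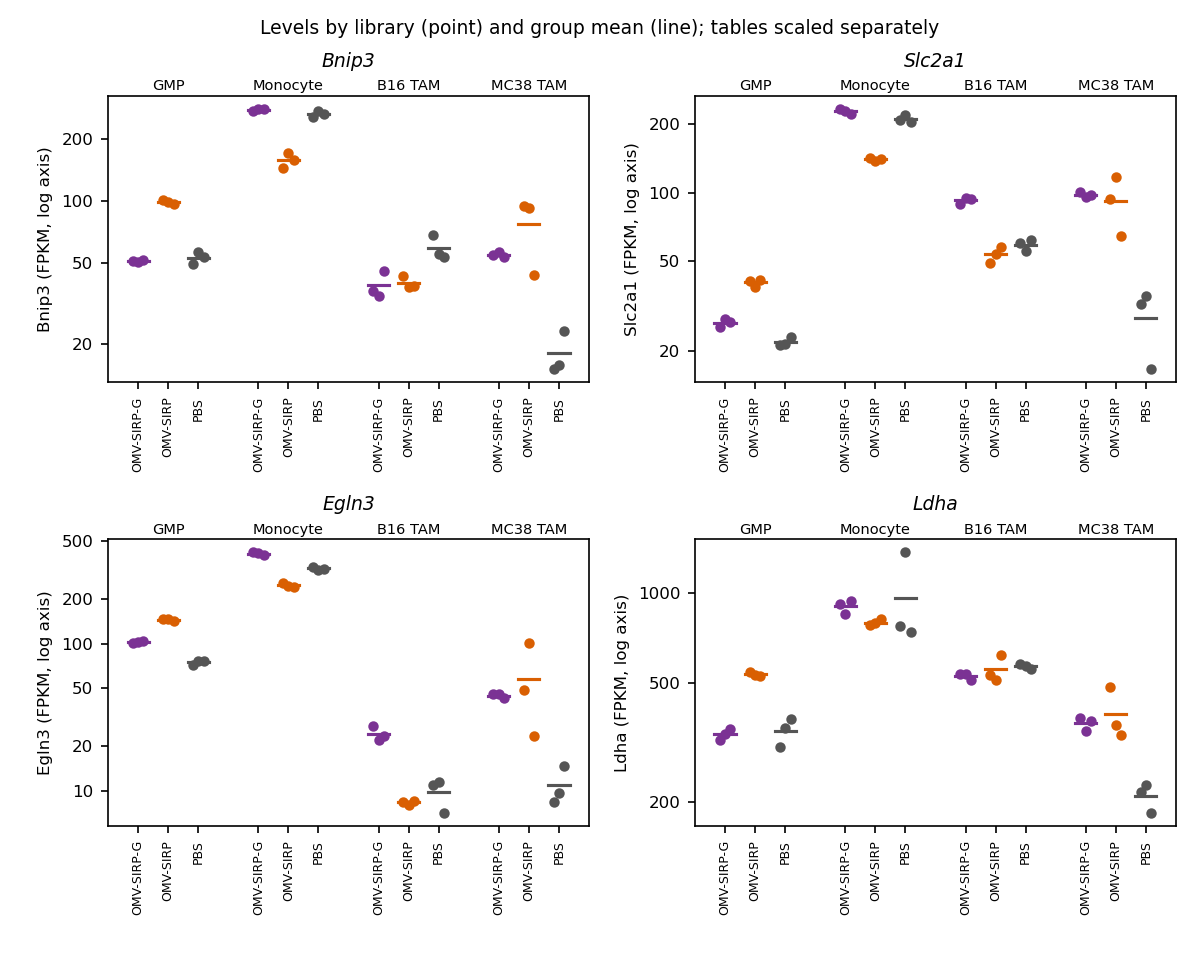
FPKM on a log axis of Bnip3, Slc2a1, Egln3 and Ldha in every library (points) with the mean of each group (line), for GMP, monocytes, B16 TAM and MC38 TAM. Bnip3 and Slc2a1 are highest after OMV-SIRP in GMP, lowest after OMV-SIRP in monocytes and lowest after PBS in MC38 TAM, and Egln3 is highest after OMV-SIRP-G in B16 TAM.

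In B16 TAM, OMV-SIRP left no member called against PBS: limma called 0 of 40 higher and 0 lower (7 at an unadjusted p under 0.05), and voom on recovered reads also called 0 (7 at an unadjusted p under 0.05). Among all 12542 genes 0.885% were called higher and 0.566% lower. An unadjusted p under 0.05 was reached by 1204 of them in limma and 1242 in voom. OMV-SIRP-G split the programme. Against PBS, 9 members were higher and 11 lower (7.83% and 7.28% of all genes), with a median log2 change of -0.25, and with FPKM scaled to total reads the split was 6 higher and 15 lower. Scaled so, all genes gave 868 higher and 1007 lower. Without OMV-SIRP-G 2 or OMV-SIRP-G 3 11 were called, and without OMV-SIRP-G 1 or any 1 PBS library 13. All genes gave 1177 to 1470 calls in these fits, against 1895 with all libraries. Against OMV-SIRP, 6 were higher and 8 lower (6.35% and 5.62% of all genes; median -0.06), with 8 called without OMV-SIRP-G 2 or OMV-SIRP-G 3 and 9 without OMV-SIRP 1 or PBS 3. Here all genes gave 1005 to 1166 calls, against 1502 with all libraries. Scaling to total reads without mitochondrial genes, added after the data were seen, gave 724 genes higher and 1187 lower against PBS (982 and 913 as deposited) and 595 and 919 against OMV-SIRP (797 and 705 as deposited), with 6 members higher and 15 lower against PBS and 5 and 10 against OMV-SIRP. The enzymes of the hexose phase were mostly lower with OMV-SIRP-G than with PBS (6 lower and 1 higher of 10), and the flux regulators were higher (2 of 3). Transporters gave 2 higher and 1 lower of 4, the triose phase 1 lower of 7, mitochondrial genes 1 lower of 5, oxygen sensors and collagen hydroxylases 2 higher of 4, and secreted or other genes 2 higher and 2 lower of 7.

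Among the members that were higher, Egln3 had 27.4, 22.04 and 23.6 FPKM after OMV-SIRP-G, 8.41, 7.98 and 8.54 after OMV-SIRP and 10.8, 11.5 and 7.10 after PBS in B16 TAM. All OMV-SIRP-G libraries lay above the other 6 (log2 change 1.25 ± 0.18, adjusted p = 0.00122 against PBS, a ratio of means of 2.48; log2 change 1.44 ± 0.18, adjusted p = 0.000806 against OMV-SIRP). Slc2a1 had 88.97, 95.1 and 93.7 FPKM after OMV-SIRP-G, 48.9, 53.6 and 57.5 after OMV-SIRP and 59.7, 55.1 and 62.03 after PBS. The OMV-SIRP-G libraries again stood above the rest (log2 change 0.64 ± 0.10, adjusted p = 0.00218 against PBS; log2 change 0.79 ± 0.10, adjusted p = 0.00104 against OMV-SIRP). Hk3, the hexokinase typical of myeloid cells, had 100.2, 99.7 and 106 FPKM after OMV-SIRP-G, 51.4, 58.2 and 64.4 after OMV-SIRP and 74.6, 59.6 and 57.3 after PBS. OMV-SIRP-G did not overlap the others (log2 change 0.68 ± 0.13, adjusted p = 0.00573 against PBS; log2 change 0.81 ± 0.13, adjusted p = 0.00283 against OMV-SIRP). Pfkfb3 had 24.4, 24.5 and 26.7 FPKM after OMV-SIRP-G, 16.4, 17.4 and 11.9 after OMV-SIRP and 15.4, 14.9 and 15.6 after PBS. It showed the same order (log2 change 0.68 ± 0.15, adjusted p = 0.0121 against PBS; log2 change 0.71 ± 0.15, adjusted p = 0.0131 against OMV-SIRP). Pfkfb4 had 10.1, 11.4 and 7.98 FPKM after OMV-SIRP-G, 6.30, 5.26 and 5.61 after OMV-SIRP and 3.36, 2.82 and 4.55 after PBS. The groups were separate, OMV-SIRP-G highest and PBS lowest (log2 change 1.25 ± 0.19, adjusted p = 0.00195 for OMV-SIRP-G against PBS). Its call against OMV-SIRP (log2 change 0.68 ± 0.19, adjusted p = 0.0476) was lost when any 1 library but OMV-SIRP-G 3 was left out (largest adjusted p 0.149).

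Slc16a3 in B16 TAM had 50.02, 55.9 and 57.2 FPKM after OMV-SIRP-G, 38.98, 42.05 and 44.1 after OMV-SIRP and 42.3, 37.4 and 32.5 after PBS. OMV-SIRP-G was highest (log2 change 0.53 ± 0.12, adjusted p = 0.0156 against PBS), a call which was lost on leaving out either of OMV-SIRP-G 2 and 3 or of PBS 2 and 3 (largest adjusted p 0.0742). Ndrg1 had 29.9, 26.9 and 27.7 FPKM after OMV-SIRP-G, 20.2, 16.7 and 19.5 after OMV-SIRP and 20.8, 20.99 and 21.2 after PBS. OMV-SIRP-G stood above both others (log2 change 0.40 ± 0.12, adjusted p = 0.0424 against PBS; log2 change 0.56 ± 0.12, adjusted p = 0.0121 against OMV-SIRP), and the first of these calls ended without any 1 of the 6 libraries compared (adjusted p up to 0.132 over the alternatives). That first call also ended with FPKM scaled to total reads or to the upper quartile. P4ha1 (log2 change 0.40 ± 0.12, adjusted p = 0.0449) and Ankrd37 (log2 change 1.13 ± 0.34, adjusted p = 0.0499) passed narrowly with OMV-SIRP-G against PBS. P4ha1 lost its call without any 1 library other than OMV-SIRP 3, and Ankrd37 without any 1 other than PBS 3 (largest adjusted p 0.161 and 0.148 over the alternatives). Both calls also ended with FPKM scaled to total reads or to the upper quartile, and that of Ankrd37 under voom.

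Among the members that were lower, Car9, a cell surface carbonic anhydrase that tumor cells express when oxygen is short, had 15.1, 13.2 and 10.1 FPKM after OMV-SIRP-G, 23.8, 23.3 and 24.7 after OMV-SIRP and 40.1, 35.2 and 36.6 after PBS. The groups were separate, with OMV-SIRP-G below OMV-SIRP below PBS (log2 change -1.48 ± 0.15, adjusted p = 0.00012 for OMV-SIRP-G against PBS; log2 change -0.87 ± 0.15, adjusted p = 0.00407 against OMV-SIRP), and OMV-SIRP against PBS did not pass (adjusted p = 0.0881). Pfkm, the muscle-type phosphofructokinase subunit, had 5.40, 4.53 and 2.36 FPKM after OMV-SIRP-G, 9.24, 6.93 and 8.84 after OMV-SIRP and 13.4, 10.7 and 9.06 after PBS. OMV-SIRP-G was lowest (log2 change -1.28 ± 0.25, adjusted p = 0.00675 against PBS; log2 change -0.92 ± 0.25, adjusted p = 0.0395 against OMV-SIRP, a call that ended without any 1 of 7 libraries, each OMV-SIRP library among them). Pfkl, the liver-type subunit, had 36.9, 38.5 and 41.4 FPKM after OMV-SIRP-G, 56.2, 55.2 and 54.1 after OMV-SIRP and 60.003, 52.9 and 54.6 after PBS. Its OMV-SIRP-G libraries lay below all others (log2 change -0.51 ± 0.10, adjusted p = 0.00712 against PBS; log2 change -0.49 ± 0.10, adjusted p = 0.0111 against OMV-SIRP). Aldoc had 11.3, 12.8 and 12.1 FPKM after OMV-SIRP-G, 16.8, 20.7 and 17.02 after OMV-SIRP and 21.6, 22.99 and 18.2 after PBS. OMV-SIRP-G was lowest without overlap (log2 change -0.74 ± 0.14, adjusted p = 0.00576 against PBS; log2 change -0.55 ± 0.14, adjusted p = 0.0309 against OMV-SIRP, lost without any 1 of 5 of the libraries compared). Bnip3 had 36.2, 34.2 and 45.6 FPKM after OMV-SIRP-G, 43.01, 37.9 and 38.5 after OMV-SIRP and 68.1, 54.9 and 53.3 after PBS. PBS lay above the rest and both OMV groups overlapped (log2 change -0.59 ± 0.14, adjusted p = 0.0185 for OMV-SIRP-G against PBS). Leaving out OMV-SIRP-G 1, OMV-SIRP-G 2 or PBS 1 ended that call (largest adjusted p 0.0705).

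Ldha in B16 TAM had 535, 534 and 512 FPKM after OMV-SIRP-G, 531, 512 and 622 after OMV-SIRP and 579, 567 and 557 after PBS, and Vegfa had 14.9, 15.5 and 16.1 FPKM after OMV-SIRP-G, 10.6, 12.9 and 12.4 after OMV-SIRP and 17.99, 15.3 and 19.2 after PBS; 0 of their 6 comparisons passed. The largest adjusted p of the remaining lower calls with OMV-SIRP-G against PBS, over the alternatives, was 0.15 (Mif), 0.119 (Hk1), 0.123 (Pfkp), 0.114 (Slc2a3) and 0.0503 (Tpi1), so these 5 calls were each lost without at least 1 library. Pgk1 was lower (log2 change -0.46 ± 0.08, adjusted p = 0.00417 against PBS) in every alternative.

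Cell type markers differed between the same B16 libraries. Melanocyte markers, which B16-F10 melanoma cells carry, summed to 786 to 891 FPKM after OMV-SIRP-G, 2311 to 2565 after OMV-SIRP and 2829.7 to 3079.5 after PBS. Macrophage markers went the other way, at 9366 to 9870.5 FPKM after OMV-SIRP-G, 4324 to 6279.9 after OMV-SIRP and 4879.9 to 5464 after PBS, while Csf1r, Adgre1 and the 6 other markers were all detected in each group. Erythroid markers summed to 3233 to 3267 FPKM after OMV-SIRP-G, 2220.1 to 3101 after OMV-SIRP and 16535 to 17906 after PBS, and T and NK cell markers to 72.5 to 90.6 FPKM after OMV-SIRP-G, 61.9 to 90.04 after OMV-SIRP and 214 to 288 after PBS. Mitochondrial genes took 13.02% to 14.2% after OMV-SIRP-G, 18.4% to 21.3% after OMV-SIRP and 15.2% to 19.7% after PBS of reads. The part of these differences in the result was not tested.

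The wider pathway of B16 TAM held few calls with OMV-SIRP against PBS, where 0.885% of all genes were called higher and 0.566% lower. The shares over all genes were 7.83% and 7.28% in OMV-SIRP-G against PBS and 6.35% and 5.62% in OMV-SIRP-G against OMV-SIRP. Hif1a had 17.1, 15.1 and 21.3 FPKM after OMV-SIRP-G, 16.5, 23.8 and 15.02 after OMV-SIRP and 22.1, 22.4 and 20.4 after PBS, with 0 of 3 comparisons called. Of the other hypoxia targets, 23 were tested, with 3 higher and 7 lower in OMV-SIRP-G against PBS, 0 and 0 in OMV-SIRP against PBS, and 3 and 4 in OMV-SIRP-G against OMV-SIRP. Hilpda had 77.4, 66.7 and 91.8 FPKM after OMV-SIRP-G, 40.1, 40.6 and 49.1 after OMV-SIRP and 55.04, 46.8 and 53.001 after PBS. OMV-SIRP-G lay above OMV-SIRP (log2 change 0.84 ± 0.14, adjusted p = 0.00379). Insig2, a regulator of sterol synthesis, was lower with OMV-SIRP-G than with PBS (log2 change -1.16 ± 0.15, adjusted p = 0.000699). The hypoxia-inducible factor pathway gave 12 tested, with 0 higher and 0 lower in OMV-SIRP-G against PBS, 0 and 0 in OMV-SIRP against PBS, and 0 and 0 in OMV-SIRP-G against OMV-SIRP. Of the other glycolysis and pyruvate genes, 15 were tested, with 0 higher and 2 lower in OMV-SIRP-G against PBS, 0 and 1 in OMV-SIRP against PBS, and 0 and 1 in OMV-SIRP-G against OMV-SIRP. Ldhb, the lactate dehydrogenase subunit of oxidative tissue, had 41.2, 56.01 and 33.4 FPKM after OMV-SIRP-G, 121, 109.9 and 122 after OMV-SIRP and 150.5, 113 and 129 after PBS. OMV-SIRP-G was lowest (log2 change -1.59 ± 0.18, adjusted p = 0.000249 against PBS; log2 change -1.44 ± 0.18, adjusted p = 0.000728 against OMV-SIRP). Bpgm, an enzyme typical of red cells, had 11.6, 7.55 and 6.29 FPKM after OMV-SIRP-G, 10.8, 10.6 and 8.79 after OMV-SIRP and 31.7, 25.7 and 21.5 after PBS. PBS lay above both OMV groups (log2 change -1.55 ± 0.22, adjusted p = 0.00106 for OMV-SIRP-G; log2 change -1.29 ± 0.22, adjusted p = 0.0149 for OMV-SIRP), as did the erythroid marker sum. Pentose phosphate genes numbered 7 tested, with 2 higher and 0 lower in OMV-SIRP-G against PBS, 0 and 0 in OMV-SIRP against PBS, and 0 and 0 in OMV-SIRP-G against OMV-SIRP. In gluconeogenesis there were 5 tested, with 0 higher and 3 lower in OMV-SIRP-G against PBS, 0 and 0 in OMV-SIRP against PBS, and 0 and 0 in OMV-SIRP-G against OMV-SIRP. In the citric acid cycle there were 16 tested, with 0 higher and 1 lower in OMV-SIRP-G against PBS, 0 and 0 in OMV-SIRP against PBS, and 0 and 1 in OMV-SIRP-G against OMV-SIRP.

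**Figure D4:**
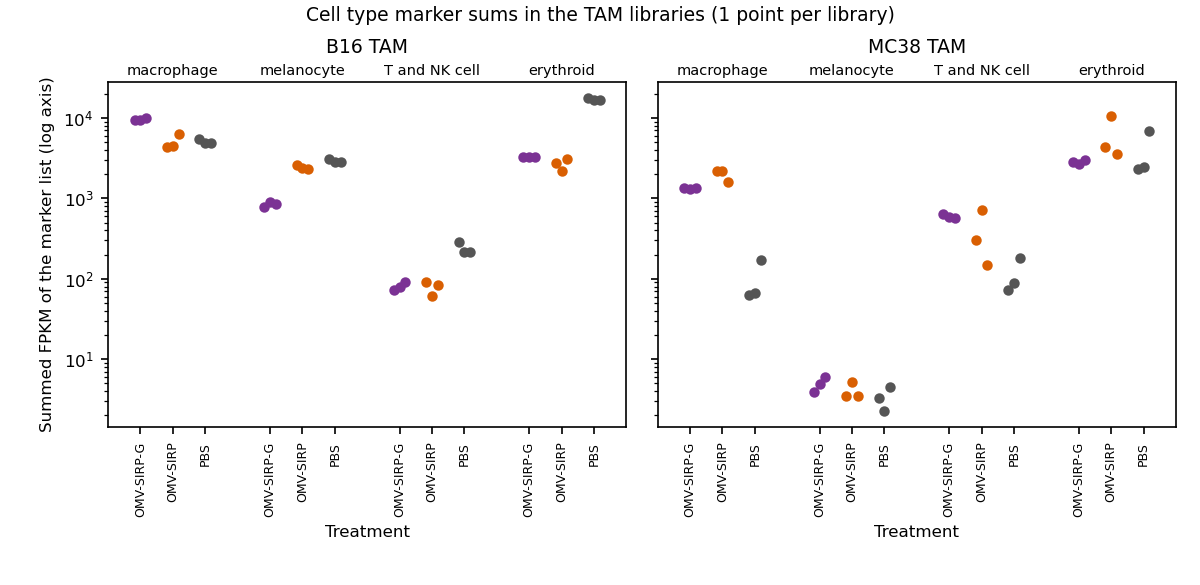
Summed FPKM (log axis) of macrophage, melanocyte, T and NK cell and erythroid markers in each B16 TAM (left) and MC38 TAM (right) library, by treatment. The macrophage sum of the MC38 PBS libraries is 63.1 to 170 FPKM, under every other TAM library, and the melanocyte sum of B16 TAM is lowest after OMV-SIRP-G.

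In MC38 TAM both OMV treatments went with higher mRNA of the programme. OMV-SIRP-G had 21 members higher and 1 lower than PBS (13.1% and 6.86% of all 14089 genes tested; median log2 change 0.96). OMV-SIRP had 22 higher and 1 lower (7.4% and 3.49% of all genes; median 1.10). The lower gene was Slc16a1 in both. Scaled to total reads, all genes gave 1558 higher and 1442 lower with OMV-SIRP-G (1843 and 966 as deposited) and 699 and 1648 with OMV-SIRP (1042 and 492 as deposited), and the members 20 higher and 1 lower with OMV-SIRP-G and 14 and 1 with OMV-SIRP. The hexose phase held 8 higher of 10 in each comparison, and the triose phase 3 of 7 with OMV-SIRP-G and 5 of 7 with OMV-SIRP. Of the other roles, OMV-SIRP-G had 2 of 4 transporters, 2 of 3 flux regulators, 2 of 5 mitochondrial genes, 2 of 4 oxygen sensors and collagen hydroxylases and 2 of 7 secreted or other genes higher than PBS. Between OMV-SIRP-G and OMV-SIRP limma called 0 members higher and 0 lower (3 at an unadjusted p under 0.05), and voom called 0 (3 at an unadjusted p under 0.05), where all genes gave 0.149% and 0.234% (21 higher and 33 lower, and 29 and 21 scaled to total reads). Of all 14089 genes, 1675 had an unadjusted p under 0.05 in limma and 1530 in voom.

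These differences stand beside a difference in macrophage markers between the same libraries. Their sum was 1319 to 1355 FPKM after OMV-SIRP-G, 1579 to 2209 after OMV-SIRP and 63.1 to 169.5 after PBS, so no OMV library overlapped PBS. Neutrophil maturation markers summed to 35.1 to 53.8 FPKM after OMV-SIRP-G, 39.5 to 169 after OMV-SIRP and 256 to 576 after PBS, and T and NK cell markers to 569.8 to 642 FPKM after OMV-SIRP-G, 147 to 715 after OMV-SIRP and 72.8 to 181 after PBS. Of the 10 neutrophil maturation markers, 8 averaged at least 1 FPKM after PBS, 6 after OMV-SIRP and 5 after OMV-SIRP-G. Ly6g was below 0.1 FPKM in all 9 libraries. Mitochondrial genes took 6.06% to 6.46% after OMV-SIRP-G, 15.2% to 21.5% after OMV-SIRP and 2.98% to 5.07% after PBS of reads. The part of these differences in the result was not tested. Without OMV-SIRP 2 and PBS 3, a check added after the data were seen, OMV-SIRP-G had 29 members called against PBS and OMV-SIRP had 25. Calls over all genes rose as well, to 4701 and 2042 of 13570, from 2809 and 1534 of 14089. Without OMV-SIRP 1 alone 14 members were called for OMV-SIRP against PBS, and without PBS 1 alone 15. All genes gave 728 and 829 calls in these fits.

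Hk3 had 38.2, 31.6 and 36.03 FPKM after OMV-SIRP-G, 23.7, 34.9 and 16.1 after OMV-SIRP and 3.68, 2.17 and 0 after PBS in MC38 TAM. Every OMV library lay above every PBS library, 1 of which was listed at 0 (log2 change 3.88 ± 0.51, adjusted p = 0.00178 for OMV-SIRP-G against PBS; log2 change 3.33 ± 0.51, adjusted p = 0.00556 for OMV-SIRP against PBS). Aldoc had 9.22, 10.6 and 11.9 FPKM after OMV-SIRP-G, 18.4, 11.5 and 6.11 after OMV-SIRP and 0, 1.35 and 0 after PBS. It was listed at 0 in 2 PBS libraries (log2 change 3.11 ± 0.44, adjusted p = 0.00219 for OMV-SIRP-G against PBS; log2 change 3.17 ± 0.44, adjusted p = 0.00359 for OMV-SIRP against PBS). The sizes of both changes depend on the 1 FPKM added: with 0.1 FPKM added, OMV-SIRP-G against PBS came to 5.21 for Hk3 and 5.44 for Aldoc on the log2 scale. Cox4i2, at 3.14, 0 and 1.88 FPKM after OMV-SIRP-G, 1.32, 10.3 and 2.83 after OMV-SIRP and 0, 0 and 0 after PBS, was listed at 0 in every PBS library and passed in 0 comparisons. Gpi1, the phosphoglucose isomerase, had 133, 121 and 129 FPKM after OMV-SIRP-G, 127, 139 and 83.04 after OMV-SIRP and 25.4, 29.6 and 44.5 after PBS. Both OMV groups stood above PBS (log2 change 1.95 ± 0.24, adjusted p = 0.00146 for OMV-SIRP-G; log2 change 1.79 ± 0.24, adjusted p = 0.00348 for OMV-SIRP). Pfkl had 23.8, 26.5 and 25.5 FPKM after OMV-SIRP-G, 31.7, 30.3 and 21.9 after OMV-SIRP and 6.59, 8.74 and 4.30 after PBS. The groups separated in the same way (log2 change 1.84 ± 0.24, adjusted p = 0.00181 for OMV-SIRP-G; log2 change 1.97 ± 0.24, adjusted p = 0.00211 for OMV-SIRP). Pfkp had 23.97, 24.3 and 21.7 FPKM after OMV-SIRP-G, 19.9, 29.3 and 13.8 after OMV-SIRP and 5.22, 6.32 and 5.21 after PBS. OMV-SIRP-G was 4.18 times PBS as a ratio of means (log2 change 1.89 ± 0.25, adjusted p = 0.00183), and OMV-SIRP 3.76 times PBS (log2 change 1.68 ± 0.25, adjusted p = 0.00505).

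Tpi1 in MC38 TAM had 249, 221 and 222 FPKM after OMV-SIRP-G, 341, 282 and 206 after OMV-SIRP and 98.9, 90.5 and 101 after PBS. Both OMV groups lay above PBS (log2 change 1.25 ± 0.18, adjusted p = 0.00234 for OMV-SIRP-G; log2 change 1.48 ± 0.18, adjusted p = 0.00182 for OMV-SIRP). Aldoa had 599.9, 536 and 572 FPKM after OMV-SIRP-G, 623, 628 and 411 after OMV-SIRP and 170.2, 220.5 and 244 after PBS. The order was the same (log2 change 1.44 ± 0.19, adjusted p = 0.00186 for OMV-SIRP-G; log2 change 1.37 ± 0.19, adjusted p = 0.00388 for OMV-SIRP). Ldha had 382, 346 and 371 FPKM after OMV-SIRP-G, 482, 361 and 335 after OMV-SIRP and 214, 226 and 184 after PBS. It too was higher with OMV-SIRP-G (log2 change 0.82 ± 0.16, adjusted p = 0.00769) and with OMV-SIRP (log2 change 0.90 ± 0.16, adjusted p = 0.00906) than with PBS. The OMV-SIRP call ended with FPKM scaled to total reads and in a fit of only OMV-SIRP and PBS (adjusted p up to 0.0511).

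The transporter Slc2a1 had 101, 95.9 and 97.3 FPKM after OMV-SIRP-G, 93.6, 118 and 64.4 after OMV-SIRP and 32.2, 34.9 and 16.6 after PBS in MC38 TAM. All 6 OMV libraries lay above the PBS libraries (log2 change 1.84 ± 0.29, adjusted p = 0.00372 for OMV-SIRP-G; log2 change 1.71 ± 0.29, adjusted p = 0.00878 for OMV-SIRP). Slc16a3 had 47.6, 47.9 and 46.9 FPKM after OMV-SIRP-G, 40.2, 50.01 and 26.02 after OMV-SIRP and 10.9, 13.9 and 11.5 after PBS. It was higher after both OMV treatments (log2 change 1.89 ± 0.23, adjusted p = 0.00125 for OMV-SIRP-G; log2 change 1.56 ± 0.23, adjusted p = 0.0046 for OMV-SIRP). Slc16a1 was lower, with 12.1, 12.8 and 10.5 FPKM after OMV-SIRP-G, 9.74, 7.32 and 14.6 after OMV-SIRP and 27.9, 23.7 and 17.98 after PBS. PBS lay above all OMV libraries (log2 change -0.90 ± 0.26, adjusted p = 0.0385 for OMV-SIRP-G; log2 change -1.09 ± 0.26, adjusted p = 0.0294 for OMV-SIRP), but each call ended without any 1 of at least 6 libraries (adjusted p up to 0.128 and 0.0963).

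Bnip3 had 54.2, 56.3 and 53.4 FPKM after OMV-SIRP-G, 95.003, 92.7 and 43.5 after OMV-SIRP and 15.1, 15.8 and 23.2 after PBS in MC38 TAM. PBS was lowest without overlap (log2 change 1.57 ± 0.30, adjusted p = 0.00724 for OMV-SIRP-G; log2 change 1.98 ± 0.30, adjusted p = 0.00505 for OMV-SIRP). Egln3 had 45.2, 45.2 and 42.7 FPKM after OMV-SIRP-G, 48.4, 101 and 23.7 after OMV-SIRP and 8.42, 9.61 and 14.6 after PBS. Its OMV-SIRP libraries spread widely around OMV-SIRP-G and all lay above PBS (log2 change 1.97 ± 0.44, adjusted p = 0.0143 for OMV-SIRP-G, lost without OMV-SIRP-G 1 or OMV-SIRP-G 2; log2 change 2.11 ± 0.44, adjusted p = 0.0179 for OMV-SIRP, lost without PBS 1, PBS 2 or OMV-SIRP 1). The OMV-SIRP call was also lost in a fit of only OMV-SIRP and PBS. Ankrd37 had 12.8, 11.2 and 11.7 FPKM after OMV-SIRP-G, 11.5, 18.99 and 7.99 after OMV-SIRP and 1.29, 1.23 and 5.30 after PBS. It was higher after OMV-SIRP-G (log2 change 2.02 ± 0.43, adjusted p = 0.0123) and after OMV-SIRP (log2 change 2.04 ± 0.43, adjusted p = 0.019), and both calls ended under voom on recovered reads (adjusted p = 0.0557 for OMV-SIRP-G). The Ankrd37 call for OMV-SIRP also ended without PBS 1, PBS 2 or OMV-SIRP 1. A fit of only OMV-SIRP and PBS ended it too (largest adjusted p 0.0842 over the alternatives). Vegfa had 51.3, 53.4 and 53.7 FPKM after OMV-SIRP-G, 65.4, 52.4 and 61.8 after OMV-SIRP and 44.1, 46.5 and 47.3 after PBS. The OMV libraries all lay above PBS, but neither comparison passed (adjusted p = 0.347 for OMV-SIRP-G and 0.116 for OMV-SIRP).

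The wider pathway of MC38 TAM was less uniform. Of all genes tested, 13.1% were called higher and 6.86% lower in OMV-SIRP-G against PBS, and 7.4% and 3.49% in OMV-SIRP against PBS. The shares were 0.149% and 0.234% in OMV-SIRP-G against OMV-SIRP. Hif1a had 44.2, 45.3 and 44.7 FPKM after OMV-SIRP-G, 37.2, 60.7 and 37.3 after OMV-SIRP and 54.5, 60.02 and 58.9 after PBS, with 0 of 3 comparisons called. Of the other hypoxia targets, 24 were tested, with 5 higher and 3 lower in OMV-SIRP-G against PBS, 4 and 3 in OMV-SIRP against PBS, and 1 and 0 in OMV-SIRP-G against OMV-SIRP. Selenbp1 had 16.9, 12.7 and 12.2 FPKM after OMV-SIRP-G, 16.1, 10.6 and 9.34 after OMV-SIRP and 0, 0.699 and 0 after PBS, listed at 0 in 2 PBS libraries. Both OMV groups lay above PBS (log2 change 3.63 ± 0.31, adjusted p = 0.000256 for OMV-SIRP-G; log2 change 3.41 ± 0.31, adjusted p = 0.000433 for OMV-SIRP). Bhlhe40, a transcriptional repressor, had 138, 140.0 and 142 FPKM after OMV-SIRP-G, 59.3, 80.7 and 79.4 after OMV-SIRP and 48.1, 51.8 and 59.5 after PBS. It was the list's only call between the OMV treatments (log2 change 0.94 ± 0.16, adjusted p = 0.0489). Angptl4, a lipase inhibitor, was lower with OMV-SIRP than with PBS (log2 change -1.74 ± 0.34, adjusted p = 0.0148). The hypoxia-inducible factor pathway gave 13 tested, with 2 higher and 1 lower in OMV-SIRP-G against PBS, 2 and 0 in OMV-SIRP against PBS, and 0 and 0 in OMV-SIRP-G against OMV-SIRP. Of the other glycolysis and pyruvate genes, 15 were tested, with 0 higher and 1 lower in OMV-SIRP-G against PBS, 0 and 3 in OMV-SIRP against PBS, and 0 and 0 in OMV-SIRP-G against OMV-SIRP. For the pentose phosphate pathway the count was 7 tested, with 3 higher and 0 lower in OMV-SIRP-G against PBS, 2 and 0 in OMV-SIRP against PBS, and 0 and 0 in OMV-SIRP-G against OMV-SIRP. Gluconeogenesis gave 3 tested, with 0 higher and 1 lower in OMV-SIRP-G against PBS, 0 and 1 in OMV-SIRP against PBS, and 0 and 0 in OMV-SIRP-G against OMV-SIRP. The citric acid cycle gave 16 tested, with 1 higher and 2 lower in OMV-SIRP-G against PBS, 1 and 1 in OMV-SIRP against PBS, and 0 and 0 in OMV-SIRP-G against OMV-SIRP.

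Gapdh, the dehydrogenase of the triose phase and a frequent reference gene, spread far more between libraries than Pgk1, the next enzyme of the pathway. It had 55.1, 50.8 and 31.9 FPKM after OMV-SIRP-G, 8.92, 8.96 and 87.7 after OMV-SIRP and 7.36, 6.24 and 51.6 after PBS in GMP. The libraries of a group differed by more than the groups, and in monocytes the values were 55.7, 9.37 and 9.92 FPKM after OMV-SIRP-G, 116, 12.8 and 8.10 after OMV-SIRP and 13.1, 15.8 and 114 after PBS. Across a population the highest library was 14.1 times the lowest in GMP, 14.3 times in monocytes, 37.3 times in B16 TAM and 12.05 times in MC38 TAM. Pgk1 was 10.1 to 105 times Gapdh in GMP, 13.1 to 218 times in monocytes, 5.31 to 198 times in B16 TAM and 7.53 to 67.3 times in MC38 TAM. At 90% identity or more over at least 300 bases, 177 other gene models resembled Gapdh in GENCODE M21 transcripts, 168 of them pseudogenes, so its counted level is uncertain. Ldha had 13 such copies, Pkm 8, Eno1, Mif, Bnip3 and Aldoa 6 each, Pgk1 4, Pgam1 3 and Tpi1 2. Bnip3l, Higd1a, Gpi1, Pfkp and Ndrg1 had 1 each, and how reads were split among copies is not given in the sources used here. A second gene model named Aldoa lies beside the first on the same strand and held little, at 3.41, 5.73 and 2.32 FPKM after OMV-SIRP-G, 1.72, 0.843 and 1.11 after OMV-SIRP and 5.44, 2.29 and 4.27 after PBS in monocytes.

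**Figure D5:**
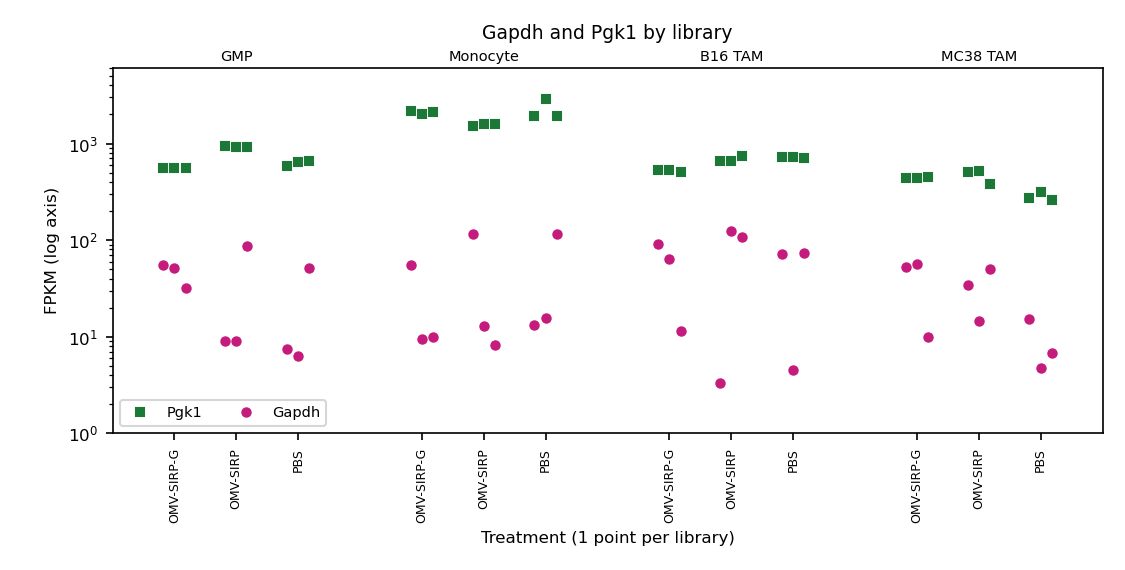
FPKM (log axis) of Pgk1 (squares) and Gapdh (circles) in each library by population and treatment. Pgk1 lies above Gapdh in every library, and Gapdh spreads up to 37.3 times within a population.

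The levels within PBS libraries ran from abundant enzymes of glycolysis to genes near 0. In GMP, Aldoa (806 ± 95.5 FPKM, SD, n = 3), Pgk1 (627 ± 41.6), Pkm (595 ± 62.1), Eno1 (427 ± 36.7) and Ldha (345 ± 37.4) led, and P4ha2, Eno2 and Adm were each below 1 FPKM. In monocytes the same 5 led, Aldoa at 2525 ± 1093 FPKM (SD, n = 3) and Pgk1 at 2264 ± 559, whose spreads overlap. In B16 TAM, Aldoa (1208 ± 131 FPKM, SD, n = 3) and Mif (912 ± 79.8) led. In MC38 TAM, Mif (348 ± 56.6 FPKM, SD, n = 3), Eno1 (330.1 ± 15.6) and Pgk1 (284 ± 28.9) led, and the ranges of Eno1 and Pgk1 overlapped that of Mif. At the low end, Aldoc averaged 0.451 ± 0.782 FPKM (SD, n = 3) and Hk3 1.95 ± 1.85 in MC38 TAM, against 20.9 ± 2.47 and 63.8 ± 9.41 in B16 TAM, where the tables were scaled separately and no test was made.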

How the data were processed

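RNA of 36 mouse libraries was sequenced, in 12 groups of 3. The authors deposited 3 tables of FPKM per gene, 1 for GMP and monocytes together and 1 for each tumor; per the submitters' processing notes HISAT2 2.0.5, featureCounts 1.5.0-p3 and StringTie were used with GRCm38. The counting strand is not given in the sources used here. FPKM times gene length gave whole reads for 100% of values within 0.05 reads, and these recovered reads served for depth (13036567 to 19822660 per library) and for a voom alternative. The tables held 56026, 56575 and 57252 gene models, of which 453, 1002 and 1679 lacked an Ensembl identifier.

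The 40 members, their roles, the pathway lists and the markers were chosen with earlier results of these data known. In each population all 9 libraries entered 1 limma 3.58.1 fit (R 4.3.3, trend and robust, statmod 1.5.0) of log2(FPKM + 1), for genes at 1 FPKM or more in at least 3 libraries, with Benjamini-Hochberg adjustment over all genes tested and calls at 0.05. Members are named by the 12 largest called log2 changes of a population with a mean of at least 5 FPKM, plus Bnip3, Slc2a1, Ldha and Vegfa, and pathway genes by the 3 smallest adjusted p per comparison; other members named were chosen after their values were seen. Replicate numbers were not used to pair libraries. Correlations of deviations between same-numbered libraries ran from -0.02 to 0.223 in GMP, against -0.215 to 0.047 between other libraries. The ranges were -0.37 to 0.25 against -0.33 to 0.37 in monocytes and 0.00 to 0.08 against -0.07 to 0.04 in B16 TAM. In MC38 TAM they were -0.03 to 0.05 against -0.06 to 0.05. Whether the numbers pair libraries was not tested. No 2 libraries agreed within sampling noise. Alternatives were a pseudocount of 0.1, no filter, scaling to total reads or to the upper quartile, a replicate block, voom, fits of the 2 groups compared and each library left out. The fit was tested on simulated data. BLAST 2.17.0 found near-identical copies among GENCODE M21 transcripts, and promoter windows came from RefSeq on GRCm38.p6.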

Additional observations from a re-analysis of the deposited data

Results flagged for a closer look

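Some members were called in opposite directions in a pair of populations under the same contrast, with libraries that did not overlap in either. How many of all genes met the same rule was not counted, so the pattern cannot be called particular to these members. The difference was not tested for any of them, since the populations were not fitted together, and the values below are differences between the log2 changes of the 2 populations. With OMV-SIRP against PBS, monocytes minus GMP came to -1.43 for Slc2a1, -1.34 for Pfkp, -1.635 for Bnip3, -1.01 for Bnip3l, -1.23 for Egln1, -1.16 for P4ha1, -1.805 for P4ha2, -1.335 for Ndrg1 and -2.41 for Ddit4. Each of these 9 was higher in GMP and lower in monocytes. With OMV-SIRP-G against OMV-SIRP, monocytes minus GMP came to 1.28 for Slc2a1, 1.185 for Pfkp, 1.75 for Bnip3, 0.9987 for Bnip3l, 1.23 for Egln1, 1.21 for Egln3, 1.51 for P4ha2, 1.145 for Ndrg1 and 1.63 for Ddit4. Each of these 9 was lower in GMP and higher in monocytes. Both contrasts use the same OMV-SIRP libraries.

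With OMV-SIRP-G against PBS, MC38 TAM minus B16 TAM came to 1.36 for Hk1, 2.35 for Pfkl, 2.37 for Pfkp, 3.85 for Aldoc, 1.73 for Tpi1, 1.11 for Pgk1 and 2.17 for Bnip3. These 7 were higher in MC38 TAM and lower in B16 TAM, where the macrophage marker sum of the PBS libraries was 63.1 to 170 FPKM in MC38 TAM and 4880 to 5464 FPKM in B16 TAM, in tables scaled separately.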

How the results depend on the processing

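Over 8175 values of the tested members under the alternatives, 411 calls were lost and 142 gained, 38 of these in monocytes without PBS 2, where 0 were lost. Of 176 calls, 111 held in every alternative: 30 of 35, 6 of 9 and 26 of 29 in GMP (OMV-SIRP against PBS, OMV-SIRP-G against PBS, OMV-SIRP-G against OMV-SIRP), 3 of 11, 2 of 3 and 3 of 10 in monocytes, 10 of 20 and 7 of 14 in the 2 OMV-SIRP-G comparisons of B16 TAM, and 11 of 23 and 13 of 22 against PBS in MC38 TAM. Ldha and Tpi1 turned sign in monocytes for OMV-SIRP-G against PBS without PBS 2, where both were called higher; Ldha then came to 0.25 and, over all libraries left out in turn, to between -0.19 and 0.25. With 1 library left out, member calls ran from 31 to 35, 6 to 11 and 26 to 31 in GMP, 6 to 24, 2 to 11 and 3 to 27 in monocytes, 0 to 1, 11 to 23 and 8 to 14 in B16 TAM, and 14 to 24, 15 to 25 and 0 to 0 in MC38 TAM, in the same order of comparisons. Calls over all genes in these fits ran from 1390 to 2144, 892 to 1882 and 1068 to 2716 in GMP. They ran from 366 to 3563, 202 to 1479 and 59 to 2516 in monocytes. In B16 TAM the ranges were 73 to 181, 1177 to 2134 and 1005 to 1495. In MC38 TAM they were 728 to 2002, 1262 to 3884 and 0 to 189. The 1 member call for OMV-SIRP against PBS in B16 TAM came without OMV-SIRP-G 3.

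No other count of member calls moved by over 1.5 times with the replicate block than those of 2 contrasts in monocytes. Calls there were 7 for OMV-SIRP against PBS and 3 for OMV-SIRP-G against OMV-SIRP, where all genes gave 520 and 75. A fit of only the 2 groups compared, with fewer samples behind the spread, gave 3 and 26 for these contrasts in monocytes. It gave 9 for OMV-SIRP-G against OMV-SIRP in B16 TAM and 11 for OMV-SIRP against PBS in MC38 TAM. Calls over all genes in these 4 fits were 284, 2118, 1050 and 409, against 1026, 293, 1502 and 1534 in the main fits. With no filter on low values B16 TAM had 13 calls for OMV-SIRP-G against PBS and 8 against OMV-SIRP, where all genes gave 1276 and 925. Scaling to total reads gave 15 for OMV-SIRP against PBS in MC38 TAM, where it moved the median of all genes to -0.27 from 0.028, and to 0.12 from -0.028 for OMV-SIRP against PBS in monocytes. Without OMV-SIRP 2 and PBS 3, an alternative added after the data were seen, 1 member was called between the OMV treatments in MC38 TAM. All genes gave 644 calls in that fit, against 54 in the main fit. The cause was not tested. Depth limits members below 1 FPKM, such as Eno2 and Adm in GMP. Since how reads were split among its copies is not known, the counted level of Gapdh is uncertain in every population. The part of the copies in its spread was not tested.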
